A study of Rattus norvegicus with 35 samples.

Results

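Kidney cortex from female rats fed a potassium deficient diet (DK) was compared by RNA sequencing with cortex from female rats fed a normal potassium diet (NK). The comparison rested on the libraries labelled as female with each of these diets, 6 DK and 6 NK, which are 12 of the 35 in the series. It was read across the 14264 genes, of 32545 in the table, that reached 1 FPKM (fragments per kilobase of gene, scaled by a factor for each library) in at least 5 of the 35 libraries. Animals of both groups were labelled wild type, were implanted with a blood pressure telemeter at 8 weeks of age and then ate a diet with 4% NaCl for 5 weeks, so high salt intake was common to the DK animals and their controls. The NK diet held 0.36% potassium, and the sources used here give neither the potassium content of the DK diet nor the strain. Cortex of 1 kidney per animal was frozen. The labels number the replicates and do not say whether each came from its own animal. The p-values therefore cover only a spread among libraries, which may be technical. That spread was estimated over all 35 libraries of the series, not over the 12 compared.

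Most of the cortex is proximal tubule, the segment that takes back filtered glucose, amino acids, phosphate and proteins. Proximal tubule cells also take up glutamine, strip its nitrogen as ammonia in their mitochondria, and turn the carbon into glucose through phosphoenolpyruvate carboxykinase. Potassium depletion is a classical stimulus of this renal ammonia production, and further along the nephron it makes collecting duct cells conserve potassium. In bulk cortex, fewer cells of a type and less RNA per cell cannot be told apart, and this holds for every gene below.

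The 12 libraries held 14642009 to 28655976 counted fragments (median 15388680). Defining genes of cortex were present in every library: the phosphate carrier Slc34a1 of the proximal tubule stood at 837 FPKM or more, Umod of the thick limb at 724 or more and Aqp2 of the collecting duct at 49.4 or more. Of the 14264 genes, 5584 differed between DK and NK (39.1%; limma on log2(FPKM + 0.5), Benjamini-Hochberg adjusted p below 0.05), 2804 of them higher (19.7%) and 2780 lower (19.5%) in DK. Over 2-fold changes were fewer, 372 upwards (2.61%) and 407 downwards (2.85%). For 817 genes every DK library lay above every NK library (5.73%), and for 846 every DK library lay below (5.93%). Scaling by library sums in place of the deposited FPKM gave a median log2 change over all genes of -0.174, against -0.00782, with 1447 higher and 4890 lower calls, so directions are relative to the deposited scaling. The library codes in the table run in 2 number series whose meaning is not stated: all 6 DK libraries and NK replicates 4 and 6 belong to the 300s, and the other NK libraries to the 200s. Within the 300s alone, 6 DK against 2 NK libraries, 3471 genes were called (24.3%), 3265 of them shared with the full comparison. With the number series as a covariate 3701 were called. The test took its spread from all 35 libraries, and a fit of the 12 libraries alone called 3816. NK replicate 4 stood apart in adipose genes (Adipoq 46.9 FPKM, against at most 6.97 in the other 11 libraries), and DK replicates 1 and 3 and NK replicate 2 carried the lowest weights when libraries were weighted by their spread.

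Among genes of glutamine uptake, ammonia production and glucose output, Slc38a3, Gls2, Glud1, Pck1 and G6pc rose. Slc38a3, the system N transporter through which proximal tubule cells draw glutamine from blood, was at 412 to 1630.0 FPKM, median 943, in DK and 45.2 to 105 FPKM, median 54.6, in NK. Gls2, a mitochondrial glutaminase first described in liver, was at 10.5 to 33.7 FPKM, median 19.1, in DK and 1.81 to 2.41 FPKM, median 2.0, in NK. Slc38a3 and Gls2 rose by 3.86 and 3.01 in log2 units (SE 0.37 and 0.18, limma adjusted p = 8.32e-10 and 5.83e-14). For both the lowest DK library exceeded the highest NK library, and DK replicate 6 was the highest and DK replicate 1 the lowest of its group each time. Glud1, the glutamate dehydrogenase of mitochondria, was at 954 to 1959.7 FPKM, median 1245, in DK and 289.8 to 361 FPKM, median 329, in NK. Pck1, cytosolic phosphoenolpyruvate carboxykinase, was at 5648 to 12545 FPKM, median 8486, in DK and 1208 to 1985 FPKM, median 1549, in NK. G6pc, the glucose-6-phosphatase that releases free glucose, read on the more abundant of its 2 rows in the table, was at 149 to 294 FPKM, median 229, in DK and 51.8 to 102 FPKM, median 72.4, in NK. Glud1, Pck1 and G6pc rose by 1.97, 2.44 and 1.61 in log2 units (SE 0.16, 0.25 and 0.25, limma adjusted p = 3.28e-11, 4.67e-09 and 6.56e-06). Again no DK library reached into the NK range. Within the 300s the log2 changes were 3.47 for Slc38a3, 3.12 for Gls2, 1.99 for Glud1, 2.33 for Pck1 and 1.76 for G6pc.

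Other enzymes around glutamine and gluconeogenesis moved the other way. Oat, ornithine aminotransferase, was at 351 to 753 FPKM, median 487, in DK and 1707 to 2741 FPKM, median 2168, in NK. Pc, the mitochondrial pyruvate carboxylase that feeds pyruvate into gluconeogenesis, was at 56.9 to 83.6 FPKM, median 72.2, in DK and 99.2 to 187 FPKM, median 134, in NK. Oat and Pc fell by 2.1 and 0.95 in log2 units (SE 0.23 and 0.16, limma adjusted p = 1.38e-08 and 2.03e-05). Both were lower in every DK library than in any NK library. Glul, glutamine synthetase, which uses up ammonia, fell by 0.53 on the log2 scale (limma adjusted p = 0.00526), with a median of 516 FPKM in DK and 737 FPKM in NK, and its call was lost with the number series as a covariate (log2 change -0.46, limma adjusted p = 0.0772). The proximal sodium-proton exchanger Slc9a3 fell by 0.61 (limma adjusted p = 0.00839), and this call ended within the 300s (log2 change -0.35, limma adjusted p = 0.356). Groups of genes were read through lists of pathway and cell type genes, of whose 1080 entries (some in more than 1 list) 1040 are in the table and 930 passed the expression threshold. Over all genes tested 19.7% rose and 19.5% fell, 39.1% together, and the counts of every list are to be read against these shares. Within the 300s 24.3% of all genes were called, 1852 higher and 1619 lower in DK. In the list of glutamine use, gluconeogenesis and acid excretion, 13 of the 27 members tested rose, 5 fell and 9 did not pass the test (10 and 3 within the 300s), with a median log2 change of 0.28 against -0.00782 over all genes tested. After quantile normalization 6 rose and 7 fell, so the balance of the list depended on the scaling. The ammonia channel Rhcg of the distal nephron had a log2 change of 0.47 (limma adjusted p = 0.0159). It did not pass once the number series was a covariate (log2 change 0.46, limma adjusted p = 0.0926), after quantile normalization (log2 change 0.27, limma adjusted p = 0.155) or under library sums (log2 change 0.29, limma adjusted p = 0.0948).

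**Figure D1:**
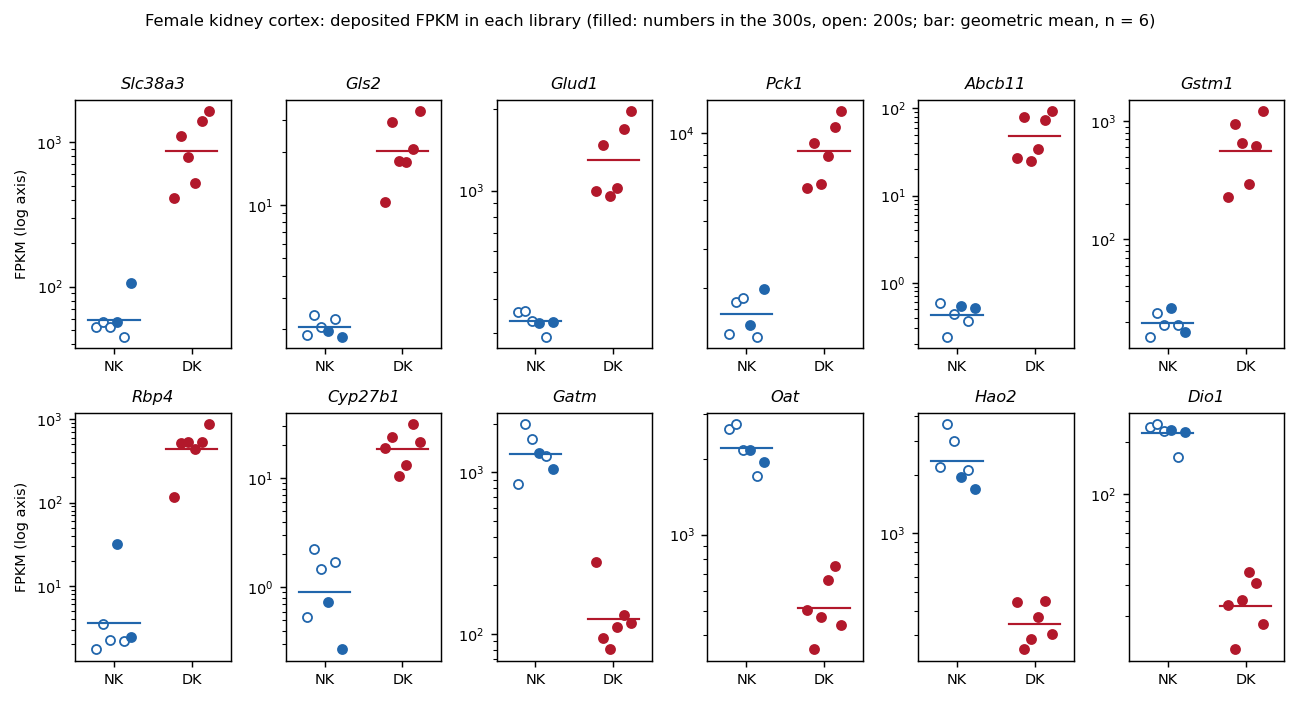
Deposited FPKM (log axis) of 12 genes in each of the 6 NK (blue) and 6 DK (red) female libraries. Filled points are libraries of the 300s, open points those of the 200s, and the bar is the geometric mean; for each of these 12 genes the DK points lie wholly above (Slc38a3 to Cyp27b1) or wholly below (Gatm to Dio1) the NK points.

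Most genes of amino acid breakdown that passed rose. In this list 29 of the 45 members tested rose, 3 fell and 13 did not pass the test (29 and 2 within the 300s), with a median log2 change of 0.52. Tat, tyrosine aminotransferase, was at 26.1 to 68.8 FPKM, median 39, in DK and 0.45 to 1.62 FPKM, median 0.944, in NK. Sds, serine dehydratase, was at 35.3 to 269.7 FPKM, median 103, in DK and 1.94 to 12 FPKM, median 5.18, in NK. Bhmt, which remethylates homocysteine with betaine, was at 145 to 459 FPKM, median 304, in DK and 21.9 to 42.7 FPKM, median 29.4, in NK. Tat, Sds and Bhmt rose by 4.83, 4.29 and 3.26 in log2 units (SE 0.27, 0.42 and 0.27, limma adjusted p = 1.47e-14, 1.53e-09 and 4.49e-11). None of these overlapped between diets, though Sds spread widely within DK, from replicate 1 at the bottom to replicate 3 at the top. Both alanine aminotransferases rose, the mitochondrial Gpt2 with a median of 14.5 FPKM in DK and 1.41 FPKM in NK and the cytosolic Gpt with a median of 43.3 FPKM in DK and 9.39 FPKM in NK. Gpt2 and Gpt rose by 2.78 and 2.15 in log2 units (SE 0.18 and 0.20, limma adjusted p = 6.12e-13 and 6.80e-10). Proline dehydrogenase (Prodh) rose by 2.12, the lysine-degrading Aass by 1.64 and the glycine decarboxylase Gldc by 1.61 on the log2 scale, each with all 6 DK libraries above all 6 NK libraries. The exception with no overlap was Kmo, the kynurenine monooxygenase of tryptophan breakdown, at 23.6 to 47.5 FPKM, median 33, in DK and 50.7 to 74.3 FPKM, median 58.6, in NK. Kmo fell by 0.87 in log2 units (SE 0.16, limma adjusted p = 6.57e-05).

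The urea cycle enzymes that make arginine in the proximal tubule rose, whereas the first step of creatine synthesis fell. Ass1, argininosuccinate synthetase, was at 1123 to 2397 FPKM, median 2024, in DK and 543 to 1066 FPKM, median 733, in NK. Asl, the lyase after it, was at 149.8 to 317 FPKM, median 278, in DK and 103 to 199 FPKM, median 129.6, in NK. Ass1 and Asl rose by 1.36 and 0.94 in log2 units (SE 0.16 and 0.17, limma adjusted p = 8.91e-08 and 7.46e-05). Ass1 did not overlap between diets, while for Asl DK replicate 1 lay inside the NK range. Arg2, the mitochondrial arginase, was at 33 to 86.5 FPKM, median 60.5, in DK and 13.1 to 27.8 FPKM, median 18, in NK. Gatm, which joins arginine and glycine to the creatine precursor guanidinoacetate, was at 80.1 to 280.1 FPKM, median 114, in DK and 843 to 1987 FPKM, median 1286, in NK, while Gamt, the methyltransferase that completes creatine, was at 97.1 to 211 FPKM, median 155, in DK and 58.5 to 81.9 FPKM, median 71.9, in NK. Arg2 and Gamt rose by 1.58 and 1.07 and Gatm fell by 3.38 in log2 units (SE 0.26, 0.17 and 0.36, limma adjusted p = 1.28e-05, 6.32e-06 and 9.55e-09). The 2 enzymes of this short pathway therefore moved in opposite directions, each without overlap between diets, and DK replicate 1 kept the highest Gatm of its group and the lowest Gamt. Of the arginine, creatine and polyamine list, 10 of the 25 members tested rose, 2 fell and 13 did not pass the test (9 and 1 within the 300s), and the polyamine enzyme Odc1 had a log2 change of -0.083 (limma adjusted p = 0.860). The list had a share called of 48.0%, against 39.1% over all genes.

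Drug-metabolizing and conjugating enzymes formed the list with the highest median of the 24 pathway lists, 0.88 on the log2 scale. Here 35 of the 47 members tested rose, 5 fell and 7 did not pass the test (29 and 4 within the 300s). Gstm1, a glutathione transferase, was at 229.7 to 1212 FPKM, median 638, in DK and 15 to 26.4 FPKM, median 18.7, in NK. Ephx1, the microsomal epoxide hydrolase, was at 281 to 1375 FPKM, median 752, in DK and 82 to 132 FPKM, median 92.7, in NK. Cyp2e1, a cytochrome P450 that oxidizes ethanol and ketone bodies, was at 685 to 1445 FPKM, median 1102, in DK and 116 to 200.1 FPKM, median 161, in NK. Gstm1, Ephx1 and Cyp2e1 rose by 4.82, 2.75 and 2.66 in log2 units (SE 0.32, 0.24 and 0.22, limma adjusted p = 7.87e-13, 1.68e-10 and 4.63e-11). These 3 were separated completely between the diets, and DK replicates 1 and 4 were the lowest of their group for Gstm1 and Ephx1. Cyp4a2 and Cyp2c23, P450 enzymes that turn arachidonic acid into hydroxy and epoxy products, had a median of 2087 FPKM in DK and 515 FPKM in NK (the more abundant of 2 rows) and a median of 2482 FPKM in DK and 1027 FPKM in NK. Cyp4a2 and Cyp2c23 rose by 2.08 and 1.17 in log2 units (SE 0.15 and 0.16, limma adjusted p = 4.42e-12 and 7.81e-07). Gstp1 rose by 1.92, Nqo1, the quinone reductase, by 1.55, Sult1a1, a phenol sulfotransferase, by 3.36, and Gstt3 by 2.09. Fmo5, a flavin monooxygenase, was at 36.6 to 49.3 FPKM, median 45.9, in DK and 11.2 to 15.3 FPKM, median 12.3, in NK. Fmo5 rose by 1.78 in log2 units (SE 0.093, limma adjusted p = 4.96e-15). These families hold close paralogs, and reads shared between members may have been split or lost in counting, so the levels of single Gst and Cyp genes are uncertain. Gclc, the catalytic subunit that limits glutathione synthesis, moved opposite to the transferases, at 92 to 279.6 FPKM, median 159, in DK and 557 to 1091 FPKM, median 853, in NK, and Cyp2b2 fell by 1.28 on the log2 scale. Gclc fell by 2.35 in log2 units (SE 0.37, limma adjusted p = 8.65e-06).

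**Figure D2:**
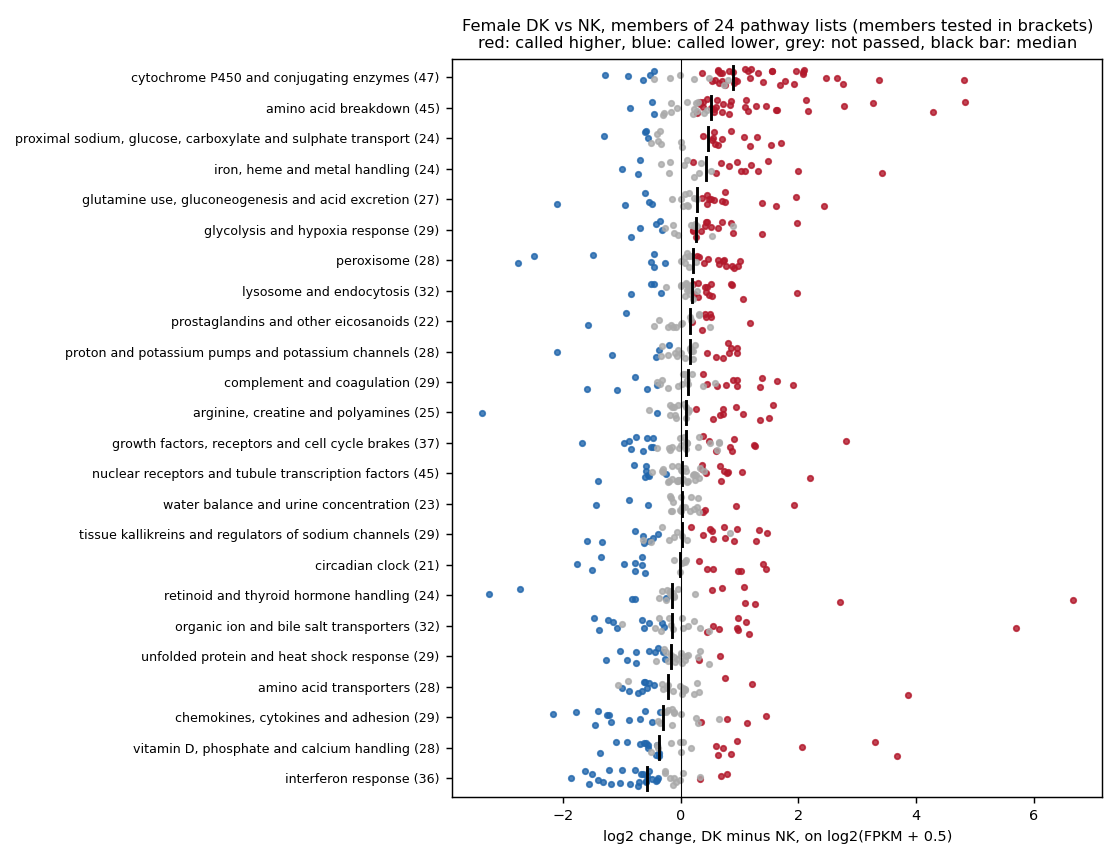
Log2 change (DK minus NK, on log2(FPKM + 0.5)) of every tested member of 24 pathway lists, 1 point per gene, red where the gene rose, blue where it fell and grey where it did not pass limma at an adjusted p of 0.05. The black bar is the list median, which runs from 0.88 for cytochrome P450 and conjugating enzymes to -0.58 for the interferon response.

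In the peroxisome, some enzymes of chain shortening rose while the hydroxyacid oxidases fell. Hao2, a kidney-rich oxidase of long-chain hydroxyacids, was at 253 to 449 FPKM, median 338, in DK and 1693 to 3646 FPKM, median 2161, in NK. Hao1, the glycolate oxidase typical of liver, was at 0 to 0.156 FPKM, median 0.0287, in DK and 1.72 to 3.21 FPKM, median 2.73, in NK, a gene low in both diets and listed at 0 in DK replicates 2, 4 and 6. Acox2, which oxidizes branched chains and bile acid precursors, was at 3.32 to 9.1 FPKM, median 5.99, in DK and 9.95 to 24.9 FPKM, median 18.1, in NK. Hao2, Hao1 and Acox2 fell by 2.77, 2.48 and 1.48 in log2 units (SE 0.20, 0.26 and 0.28, limma adjusted p = 2.35e-12, 6.01e-09 and 7.03e-05). For these 3 genes every DK library was below every NK library. Hsd17b4 and Hacl1, enzymes of peroxisomal chain shortening, rose by 0.91 and 1.0 on the log2 scale, with every DK library above NK. Of the peroxisome list 13 of the 28 members tested rose, 7 fell and 8 did not pass the test (8 and 4 within the 300s). Miox, the proximal tubule oxygenase that opens the myo-inositol ring, was at 90.1 to 168 FPKM, median 129, in DK and 614 to 1000.4 FPKM, median 787, in NK, again without overlap. Miox fell by 2.68 in log2 units (SE 0.21, limma adjusted p = 2.41e-11).

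Among organic ion and bile salt carriers the direction was mixed: 9 of the 32 members tested rose, 10 fell and 13 did not pass the test (7 and 5 within the 300s). Abcb11, the bile salt export pump best known from the liver canaliculus, was at 25.1 to 92.8 FPKM, median 54, in DK and 0.242 to 0.581 FPKM, median 0.481, in NK. Abcb11 rose by 5.7 in log2 units (SE 0.36, limma adjusted p = 3.22e-13). It went from under 1 FPKM in every NK library to at least 25.1 FPKM in every DK library, and DK replicates 2, 5 and 6 were the high ones, as they were for Slc38a3. The organic anion carrier Slc22a7 was at 12.7 to 47.1 FPKM, median 29.3, in DK and 37.5 to 93.5 FPKM, median 57.1, in NK with overlapping groups, and Slc22a25 fell by 1.09 without overlap. Slc22a7 fell by 1.15 in log2 units (SE 0.36, limma adjusted p = 0.0124). Slc17a3 and the multidrug exporter Abcc2 rose by 1.11 and 0.97. The 2 peptide transporters moved in opposite directions: Slc15a1, of low affinity, was at 6.87 to 17.8 FPKM, median 14.4, in DK and 3.09 to 8.27 FPKM, median 5.02, in NK. Slc15a2, of high affinity, was at 16.8 to 30.6 FPKM, median 25.2, in DK and 36 to 68.4 FPKM, median 49.6, in NK. Slc15a1 rose by 1.2 and Slc15a2 fell by 1.0 in log2 units (SE 0.24 and 0.24, limma adjusted p = 1.56e-04 and 0.00136). Of the amino acid transporters, Slc38a3 included, 3 of the 28 members tested rose, 9 fell and 16 did not pass the test (3 and 5 within the 300s), a share called of 42.9% against 39.1% over all genes.

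In the list of proximal sodium, glucose, carboxylate and sulphate transport 13 of the 24 members tested rose, 4 fell and 7 did not pass the test (10 and 2 within the 300s). Slc13a2, the apical citrate and succinate carrier, was at 101.3 to 239.7 FPKM, median 170.4, in DK and 57 to 76.7 FPKM, median 73.2, in NK. Slc28a1, a nucleoside carrier, was at 28.6 to 61.3 FPKM, median 52.3, in DK and 12.7 to 16.6 FPKM, median 13.9, in NK. Slc13a2 and Slc28a1 rose by 1.3 and 1.7 in log2 units (SE 0.14 and 0.19, limma adjusted p = 1.55e-08 and 1.45e-08). The lactate carriers Slc5a8 and Slc5a12 rose by 1.53 and 1.08, with DK replicate 3 inside the NK range for both. Slc5a10, a mannose and fructose carrier of the late proximal tubule, went the other way, at 27.7 to 66.2 FPKM, median 55.3, in DK and 90.5 to 145 FPKM, median 129.7, in NK. The sulphate carrier Slc13a1 was at 58.5 to 66.1 FPKM, median 61.1, in DK and 66.5 to 118 FPKM, median 95.7, in NK. Slc5a10 and Slc13a1 fell by 1.3 and 0.58 in log2 units (SE 0.18 and 0.12, limma adjusted p = 1.31e-06 and 2.01e-04). The glucose carriers Slc5a2 and Slc5a1 did not pass, with log2 changes of -0.39 and -0.34 (limma adjusted p = 0.126 and 0.243).

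Cyp27b1, Cyp24a1, S100g and Trpv5 rose, while Kl and Lrp2 fell. Cyp27b1, which hydroxylates vitamin D to its active form, was at 10.4 to 31.3 FPKM, median 20.3, in DK and 0.269 to 2.23 FPKM, median 1.1, in NK. Cyp24a1, which inactivates vitamin D and is induced by it, was at 27.7 to 111 FPKM, median 63, in DK and 11.3 to 17.7 FPKM, median 14.1, in NK. S100g, the small calcium-binding calbindin of the distal tubule, was at 11.2 to 90.1 FPKM, median 45.7, in DK and 1.96 to 5.64 FPKM, median 3.7, in NK, and the calcium channel Trpv5 rose by 0.95. Cyp27b1, Cyp24a1 and S100g rose by 3.67, 2.06 and 3.3 in log2 units (SE 0.34, 0.29 and 0.34, limma adjusted p = 5.90e-10, 1.34e-06 and 4.68e-09). All 4 genes separated the diets completely, although DK replicate 1 reached only 11.2 FPKM of S100g. Kl, klotho, the co-receptor of the phosphate hormone FGF23, was at 15.4 to 43.8 FPKM, median 38.1, in DK and 65.7 to 107 FPKM, median 94, in NK. Lrp2, megalin, which recovers filtered vitamin D binding protein, was at 64.4 to 174 FPKM, median 136, in DK and 201 to 369 FPKM, median 265, in NK, and its adaptor Dab2 fell by 0.91. Kl and Lrp2 fell by 1.37 and 1.11 in log2 units (SE 0.21 and 0.18, limma adjusted p = 3.28e-06 and 8.38e-06). Here too no values overlapped, and DK replicate 3 was the lowest library for all 3 genes. The phosphate carrier Slc34a1 was at 837 to 1363 FPKM, median 1196, in DK and 1328 to 2076 FPKM, median 1644, in NK (log2 change -0.55, SE 0.16, limma adjusted p = 0.00571), a call that ended within the 300s (log2 change -0.43, limma adjusted p = 0.198). Calb1, the larger calbindin of the same distal cells as S100g, had a log2 change of -0.0094 (limma adjusted p = 0.987). Of the whole list 8 of the 28 members tested rose, 12 fell and 8 did not pass the test (6 and 4 within the 300s).

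Among called genes with a symbol that is not a placeholder, the largest rise was in Rbp4, the plasma carrier of retinol. Its level was 117 to 871 FPKM, median 523, in DK and 1.73 to 31.8 FPKM, median 2.33, in NK. Rbp4 rose by 6.66 in log2 units (SE 0.60, limma adjusted p = 3.18e-10). The top NK value came from replicate 4, the library with high adipose genes, and the other 5 NK libraries held 1.73 to 3.48 FPKM, so that without NK replicate 4 the log2 change was 7.24. Rarres2, chemerin, was at 165 to 366 FPKM, median 313, in DK and 36.7 to 49.2 FPKM, median 39.95, in NK. Dio1, the deiodinase that activates thyroid hormone, was at 12.8 to 35.7 FPKM, median 23.9, in DK and 164 to 253 FPKM, median 233, in NK. Rdh16, a retinol dehydrogenase, was at 0.564 to 1.45 FPKM, median 0.881, in DK and 5.66 to 11.4 FPKM, median 8.66, in NK. Rarres2 rose by 2.7 and Dio1 and Rdh16 fell by 3.25 and 2.72 in log2 units (SE 0.22, 0.33 and 0.30, limma adjusted p = 4.62e-11, 4.20e-09 and 1.66e-08). Each of the 4 separated the diets. In the list of retinoid and thyroid hormone handling 7 of the 24 members tested rose, 5 fell and 12 did not pass the test (5 and 3 within the 300s), while under library sums 6 rose and 11 fell, and the receptors Thra and Rxra had log2 changes of -0.11 and -0.25 (limma adjusted p = 0.384 and 0.160).

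Among ion pumps, a subunit of the sodium pump and a subunit of the proton pump rose. Atp1b1, the beta subunit of the sodium pump, was at 1905 to 2553 FPKM, median 2278, in DK and 1139 to 1355 FPKM, median 1213, in NK. Atp6v0a4, a subunit of the proton pump of intercalated and proximal cells, was at 251 to 536 FPKM, median 374, in DK and 167 to 239.8 FPKM, median 185, in NK. Atp1b1 and Atp6v0a4 rose by 0.85 and 0.96 in log2 units (SE 0.10 and 0.14, limma adjusted p = 2.18e-08 and 2.99e-06). No DK library overlapped NK for either. The potassium channel Kcnq1 and its regulatory subunit Kcne1 moved apart: Kcnq1 was at 11.2 to 17.4 FPKM, median 14.7, in DK and 5.98 to 10.3 FPKM, median 7.92, in NK. Kcne1 was at 0.328 to 1.61 FPKM, median 0.977, in DK and 3.35 to 9.36 FPKM, median 4.99, in NK. Kcnq1 rose by 0.82 and Kcne1 fell by 2.11 in log2 units (SE 0.18 and 0.29, limma adjusted p = 5.09e-04 and 9.70e-07). Kcnj10, the basolateral potassium channel of the distal tubule, was at 2.08 to 7.15 FPKM, median 5.35, in DK and 7.13 to 13.2 FPKM, median 11.6, in NK (log2 change -1.16, SE 0.25, limma adjusted p = 4.78e-04) and lost its call within the 300s (log2 change -1.04, limma adjusted p = 0.0537), and the kinase Wnk4 rose by 0.73. Several genes known for distal potassium handling did not pass: Atp12a, the colonic proton-potassium pump, was at 0.488 to 2.5 FPKM, median 1.45, in DK and 0.667 to 5.11 FPKM, median 1.02, in NK, and the log2 changes were -0.054 for it, 0.16 for the secretory channel Kcnj1 and -0.13 for the sodium chloride cotransporter Slc12a3 (limma adjusted p = 0.927, 0.429 and 0.648). In the pump and channel list 8 of the 28 members tested rose, 5 fell and 15 did not pass the test (7 and 1 within the 300s). This is a share called of 46.4%, against 39.1% over all genes. Among water channels, Aqp4 of the basolateral side was at 5.34 to 19.2 FPKM, median 7.04, in DK and 0.80 to 3.67 FPKM, median 1.59, in NK. Aqp5 was at 0 to 0.109 FPKM, median 0.0677, in DK and 0.597 to 1.8 FPKM, median 0.888, in NK, both without overlap, whereas the vasopressin-regulated Aqp2 had a log2 change of -0.16 (limma adjusted p = 0.719). Aqp4 rose by 1.92 and Aqp5 fell by 1.44 in log2 units (SE 0.29 and 0.21, limma adjusted p = 3.16e-06 and 2.31e-06).

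Genes of the angiotensin system shifted in opposing directions. Ace, which makes angiotensin II, was at 6.14 to 11.9 FPKM, median 7.12, in DK and 1.9 to 4.01 FPKM, median 2.21, in NK. Agtr1a, a receptor for it, was at 12.5 to 20.4 FPKM, median 15.9, in DK and 20.7 to 29.6 FPKM, median 24.7, in NK. Ace rose by 1.46 and Agtr1a fell by 0.64 in log2 units (SE 0.18 and 0.11, limma adjusted p = 8.33e-08 and 1.26e-05). Every DK library was above NK for Ace and below NK for Agtr1a. Tsc22d3, a glucocorticoid- and aldosterone-induced leucine zipper gene read on the more abundant of 2 rows, was at 78.6 to 134 FPKM, median 98.5, in DK and 33.7 to 47.5 FPKM, median 40.8, in NK. The epithelial sodium channel subunits diverged: Scnn1a was at 34.3 to 61.3 FPKM, median 45.7, in DK and 18.2 to 27.9 FPKM, median 24.4, in NK. Scnn1g was at 7.93 to 14.1 FPKM, median 10.7, in DK and 13.7 to 21.2 FPKM, median 16.3, in NK. Tsc22d3 and Scnn1a rose by 1.28 and 0.95 and Scnn1g fell by 0.62 in log2 units (SE 0.17, 0.15 and 0.17, limma adjusted p = 3.73e-07, 9.39e-06 and 0.00401). The Scnn1g call did not hold within the 300s (log2 change -0.37, limma adjusted p = 0.163). In the list of tissue kallikreins and regulators of sodium channels 12 of the 29 members tested rose, 8 fell and 9 did not pass the test (8 and 4 within the 300s), while under library sums 9 rose and 12 fell.

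Hypoxia-responsive genes rose unevenly. Ndrg1, a stress-induced gene and common hypoxia marker, was at 1326 to 2096 FPKM, median 1428, in DK and 351 to 477 FPKM, median 383, in NK. Bnip3, a mitophagy receptor, was at 159.7 to 329 FPKM, median 309, in DK and 84.4 to 132 FPKM, median 111, in NK. Hif3a, a hypoxia-inducible factor subunit, was at 4.43 to 7.67 FPKM, median 5.85, in DK and 0.221 to 0.535 FPKM, median 0.356, in NK. All 3 were above NK in each DK library, but Adm, Hk2 and Ldha did not pass (log2 changes -0.14, -0.27 and 0.25; limma adjusted p = 0.465, 0.162 and 0.0700) and Pfkfb3, the glycolytic activator, was at 4.46 to 7.37 FPKM, median 6.91, in DK and 7.6 to 18.3 FPKM, median 9.67, in NK. Ndrg1, Bnip3 and Hif3a rose by 1.98, 1.37 and 2.88 and Pfkfb3 fell by 0.68 in log2 units (SE 0.20, 0.13, 0.17 and 0.15, limma adjusted p = 4.65e-09, 6.75e-10, 4.55e-14 and 5.98e-04). Ldha passed without DK replicate 4 or NK replicate 2 (limma adjusted p = 0.0405 and 0.0312), and Hk2, with a negative change, without DK replicate 1 or NK replicate 6 (limma adjusted p = 0.0382 and 0.0377). Over the glycolysis and hypoxia list 14 of the 29 members tested rose, 5 fell and 10 did not pass the test (11 and 1 within the 300s). Hspa5, the chief chaperone of the endoplasmic reticulum, was at 135 to 225 FPKM, median 158, in DK and 264 to 488 FPKM, median 338, in NK. Sdf2l1 was at 9.36 to 18.9 FPKM, median 11.7, in DK and 25.3 to 44.5 FPKM, median 26.9, in NK. Hspa5 and Sdf2l1 fell by 1.03 and 1.27 in log2 units (SE 0.16 and 0.16, limma adjusted p = 5.45e-06 and 1.28e-07). Neither overlapped, while the stress factors Atf4 and Ddit3 of the same list had log2 changes of 0.13 and 0.00036 (limma adjusted p = 0.391 and 0.999), and in all 2 of the 29 members tested rose, 10 fell and 17 did not pass the test (1 and 5 within the 300s), a share called of 41.4% against 39.1% over all genes.

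The circadian clock list split into genes above and below NK. The core clock turns on activators (Arntl) that drive repressors (Cry1, Nr1d1) and outputs (Dbp) through E-box elements in a daily cycle. The sources used here do not state the time of day of tissue collection. Arntl was at 3.81 to 7.66 FPKM, median 4.93, in DK and 1.15 to 3.17 FPKM, median 1.31, in NK. Cry1 was at 5.26 to 10.1 FPKM, median 7.9, in DK and 1.27 to 4.65 FPKM, median 2.37, in NK. Nr1d1, a repressor of Arntl, was at 7.72 to 34.8 FPKM, median 14.5, in DK and 45 to 54.1 FPKM, median 49.8, in NK. Arntl and Cry1 rose by 1.45 and 1.4 and Nr1d1 fell by 1.76 in log2 units (SE 0.26, 0.23 and 0.27, limma adjusted p = 4.37e-05, 1.34e-05 and 4.86e-06). DK and NK did not overlap for these 3, and DK replicates 1 and 2 were furthest from NK for Arntl and Nr1d1. Dbp was at 34.8 to 109.9 FPKM, median 63.4, in DK and 88.1 to 237 FPKM, median 184, in NK, with NK replicate 6 at 88.1 FPKM inside the DK range. Dbp fell by 1.5 in log2 units (SE 0.29, limma adjusted p = 1.34e-04). NK replicate 6, a 300s library, also had the highest Arntl of its group (3.17 FPKM). Ciart was at 0.442 to 2.35 FPKM, median 1.05, in DK and 0.527 to 6.81 FPKM, median 4.27, in NK (log2 change -1.35, SE 0.41, limma adjusted p = 0.00836), and with replicate 6 as 1 of only 2 NK libraries of the 300s its call ended there (log2 change -0.45, limma adjusted p = 0.574). Altogether 7 of the 21 members tested rose, 9 fell and 5 did not pass the test (4 and 5 within the 300s), with Clock and Per2 at log2 changes of 0.024 and -0.011 (limma adjusted p = 0.906 and 0.977). The E-box letters CACGTG, searched on both strands of the window from 250 bases before to 50 bases after each gene's start in RefSeq (build GRCr8), occurred in 4 of the 18 clock promoters found there (22.2%), against 6.42% of 33469 promoters and 9.36% of the 9464 promoters of genes tested. The promoters with a match were those of Tef, Ciart, Bhlhe40 and Bhlhe41, and the window held no match for Arntl, Nr1d1 or Dbp. That of Ciart is shown because it holds the letters 3 times, in capitals, upstream of the start (chr2:186112247-186112399, minus strand, GRCr8).
Ciart: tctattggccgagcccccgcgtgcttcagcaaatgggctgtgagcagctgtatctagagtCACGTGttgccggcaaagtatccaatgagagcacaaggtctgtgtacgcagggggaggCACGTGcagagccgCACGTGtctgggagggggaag

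Interferon-stimulated genes were lower together. These antiviral genes are switched on by interferon-activated transcription factors such as the IRF family through promoter elements with repeated GAAA letters. In the list 3 of the 36 members tested rose, 24 fell and 9 did not pass the test (1 and 21 within the 300s), with a median log2 change of -0.58, the lowest of the 24 pathway lists. Of the 36 members, 27 had a promoter in RefSeq, and the letters GAAA, any 2 bases and GAAA again, on either strand of the same window, stood in 18 of them (66.7%), against 3.92% of all 33469 promoters and 3.01% of the 9464 promoters of genes tested. Such a match describes the letters only. Mx1, Irf9, Irf1, Oasl and Herc6, which also fell, had no match in the window, whereas Psmb8 and Cxcl10, which rose, had a match. The stretches before the start of 4 genes that fell, and of the chemokine Cxcl10, are printed because they show how the element recurs among members; capitals mark each match, which reads TTTC where the element lies on the other strand (Irf7 chr1:205800024-205800152, minus; Oas1a chr12:41330365-41330465, plus; Bst2 chr16:18255023-18255158, minus; Oasl2 chr12:47383267-47383396, minus; Cxcl10 chr14:15988816-15988892, plus; all GRCr8).
Irf7: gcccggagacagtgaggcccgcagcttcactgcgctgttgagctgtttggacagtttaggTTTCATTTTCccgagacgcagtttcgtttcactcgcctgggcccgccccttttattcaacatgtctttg
Oas1a: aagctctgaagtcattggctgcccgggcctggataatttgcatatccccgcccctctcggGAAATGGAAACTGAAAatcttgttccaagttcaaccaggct
Bst2: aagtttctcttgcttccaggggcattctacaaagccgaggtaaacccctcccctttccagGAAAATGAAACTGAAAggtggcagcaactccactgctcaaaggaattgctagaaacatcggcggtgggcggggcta
Oasl2: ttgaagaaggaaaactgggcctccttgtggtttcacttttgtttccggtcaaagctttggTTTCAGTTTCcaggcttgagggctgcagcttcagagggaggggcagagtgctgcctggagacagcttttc
Cxcl10: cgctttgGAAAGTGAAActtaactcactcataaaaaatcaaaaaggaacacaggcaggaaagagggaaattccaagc

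Irf7, the master factor of the interferon response, was at 3.88 to 6.55 FPKM, median 4.56, in DK and 7.25 to 25.4 FPKM, median 15.6, in NK. Oas1a, which makes the activator of RNase L, was at 0.476 to 1.17 FPKM, median 0.939, in DK and 1.95 to 5.21 FPKM, median 3.01, in NK. Bst2, tetherin, was at 14.8 to 22.6 FPKM, median 18, in DK and 34.7 to 58.8 FPKM, median 40.8, in NK. Oasl2 was at 1.22 to 2.46 FPKM, median 1.77, in DK and 2.46 to 7.53 FPKM, median 7.17, in NK, and the antiviral GTPases Mx1 and Mx2 fell by 1.86 and 1.62. Irf7, Oas1a, Bst2 and Oasl2 fell by 1.55, 1.4, 1.21 and 1.5 in log2 units (SE 0.20, 0.19, 0.12 and 0.18, limma adjusted p = 2.02e-07, 6.00e-07, 1.53e-09 and 9.17e-08). All but Oasl2 were lower in every DK library, and NK replicate 2, one of the libraries with low weight, had the lowest NK value for each of these 6 except Bst2. Of the CXC chemokines that interferon also induces, Cxcl9 fell by 1.4 on the log2 scale, whereas Cxcl10 was at 15 to 36.6 FPKM, median 25.9, in DK and 11.1 to 18.9 FPKM, median 14.8, in NK (log2 change 0.79, SE 0.21, limma adjusted p = 0.00358), with the call lost within the 300s (log2 change 0.50, limma adjusted p = 0.240). Cxcl11 was at 16.2 to 43.6 FPKM, median 31, in DK and 7.7 to 14.6 FPKM, median 9.59, in NK. Cxcl11 rose by 1.45 in log2 units (SE 0.21, limma adjusted p = 1.86e-06). The viral RNA sensor Ifih1 had a log2 change of -0.082 (limma adjusted p = 0.619).

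Most chemokines and adhesion genes that passed were lower. Ccl2, which draws monocytes, was at 1.26 to 2.97 FPKM, median 2.22, in DK and 5.59 to 11.4 FPKM, median 8.87, in NK. Cxcl12, a stromal chemokine, was at 8.35 to 12.8 FPKM, median 9.99, in DK and 19.2 to 48.1 FPKM, median 27.7, in NK. Cxcl13, which draws B cells, was at 0.0681 to 0.523 FPKM, median 0.334, in DK and 1.81 to 5.94 FPKM, median 2.77, in NK. Ccl2, Cxcl12 and Cxcl13 fell by 1.78, 1.45 and 2.16 in log2 units (SE 0.20, 0.18 and 0.27, limma adjusted p = 2.05e-08, 8.99e-08 and 1.87e-07). The cytokine Il1b fell by 1.26 and the adhesion molecule Vcam1 by 0.88, and none of these 5 overlapped between diets. Over the list 4 of the 29 members tested rose, 12 fell and 13 did not pass the test (2 and 10 within the 300s). Summed FPKM of the T and natural killer cell markers was 24.1 to 32.8 FPKM, median 26.4, in DK and 37.1 to 52.5 FPKM, median 46.7, in NK, and the part of immune cell number in these chemokine and interferon values was not tested.

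**Figure D3:**
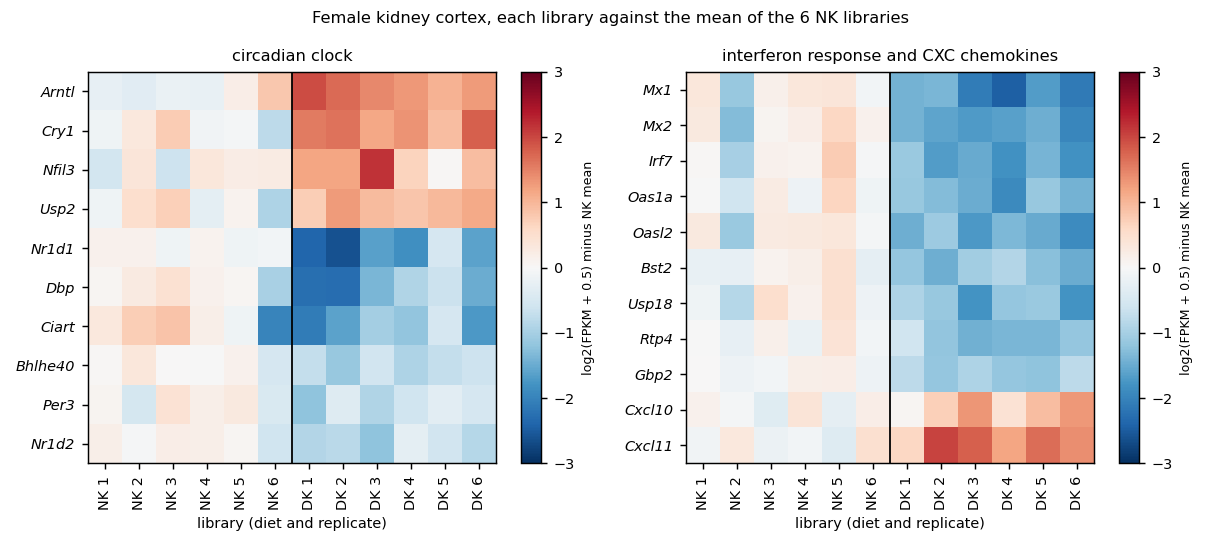
Each of the 12 female libraries against the mean of the 6 NK libraries on log2(FPKM + 0.5), for 10 circadian clock genes (left) and for 9 interferon genes with the chemokines Cxcl10 and Cxcl11 (right). The colour scale is the difference, red above and blue below the NK mean; the vertical line divides NK from DK, and NK replicate 6 resembles DK in Dbp and Ciart while NK replicate 2 lies low in the interferon genes.

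Iron handling genes rose more often than they fell: 12 of the 24 members tested rose, 3 fell and 9 did not pass the test (9 and 3 within the 300s). Tf, transferrin, was at 220.1 to 519 FPKM, median 411, in DK and 25.7 to 41.3 FPKM, median 32.8, in NK. Cp, the ferroxidase ceruloplasmin, was at 50.04 to 119 FPKM, median 76.2, in DK and 22.7 to 40.7 FPKM, median 31.3, in NK. Aco1, the iron regulatory protein that doubles as cytosolic aconitase, was at 215 to 429.8 FPKM, median 275, in DK and 77.9 to 114 FPKM, median 105, in NK. Slc11a2, the divalent metal importer, moved down, at 26.3 to 35 FPKM, median 30.1, in DK and 38.5 to 67.7 FPKM, median 46.7, in NK, while the transferrin receptor Tfrc rose by 0.96. Tf, Cp and Aco1 rose by 3.42, 1.19 and 1.48 and Slc11a2 fell by 0.69 in log2 units (SE 0.29, 0.22, 0.14 and 0.11, limma adjusted p = 9.06e-11, 6.59e-05, 4.70e-10 and 1.07e-05). The first 3 lay above NK in every DK library and Slc11a2 below. Hmox1, heme oxygenase, was at 11.3 to 253 FPKM, median 98.1, in DK and 9.49 to 29.2 FPKM, median 12.5, in NK (log2 change 1.99, SE 0.72, limma adjusted p = 0.0270), high in DK replicates 2, 3 and 6 and at NK levels in replicates 1 and 4, and its call was lost within the 300s (log2 change 1.65, limma adjusted p = 0.323) and when DK replicate 2, 3 or 6 or NK replicate 5 was left out (limma adjusted p = 0.0832, 0.0759, 0.0823 and 0.0541).

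Growth and cell cycle genes moved in both directions: 9 of the 37 members tested rose, 10 fell and 18 did not pass the test (9 and 4 within the 300s). Their share called was 51.4%, against 39.1% over all genes. Igfbp1, the insulin-regulated binding protein of IGF, was at 282 to 1098 FPKM, median 617, in DK and 45.7 to 168 FPKM, median 80.4, in NK, with no overlap. The cell cycle brake Cdkn1a was at 13.3 to 25.4 FPKM, median 17.9, in DK and 5.58 to 9.32 FPKM, median 7.1, in NK, and Myc rose by 1.26. The D cyclins fell, Ccnd2 at 1.6 to 3.98 FPKM, median 2.42, in DK and 4.63 to 13.3 FPKM, median 9.68, in NK and Ccnd1 by 0.84, again without overlap for any of the 4. Igfbp1 and Cdkn1a rose by 2.81 and 1.25 and Ccnd2 fell by 1.67 in log2 units (SE 0.34, 0.18 and 0.18, limma adjusted p = 1.21e-07, 2.70e-06 and 1.11e-08). Markers of proliferating cells were mostly lower as well: 1 of the 18 members tested rose, 14 fell and 3 did not pass the test (1 and 8 within the 300s). Their summed FPKM did not fall, at 83.4 to 94.0 FPKM, median 89.4, in DK and 77.8 to 110.7 FPKM, median 89.1, in NK. Top2a and Mki67 were low in both diets. Top2a was at 0.133 to 0.767 FPKM, median 0.31, in DK and 1.19 to 2.36 FPKM, median 1.84, in NK. Mki67 was at 0.126 to 0.525 FPKM, median 0.192, in DK and 0.706 to 1.16 FPKM, median 0.895, in NK. Top2a and Mki67 fell by 1.45 and 0.92 in log2 units (SE 0.16 and 0.15, limma adjusted p = 2.30e-08 and 1.54e-05).

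Among nuclear receptors and tubule transcription factors 10 of the 45 members tested rose, 8 fell and 27 did not pass the test (7 and 6 within the 300s), while under library sums 5 rose and 10 fell. The share called in this list was 40.0%, against 39.1% over all genes. Srebf1, which drives fatty acid synthesis genes, was at 39.5 to 100.5 FPKM, median 73, in DK and 10.8 to 16.4 FPKM, median 13.4, in NK. Esr1, the estrogen receptor alpha, was at 0.376 to 1.14 FPKM, median 0.941, in DK and 2.73 to 3.54 FPKM, median 3.0, in NK. Srebf1 rose by 2.2 and Esr1 fell by 1.41 in log2 units (SE 0.19 and 0.24, limma adjusted p = 8.51e-11 and 2.23e-05). Neither overlapped between diets. Klf15, a glucocorticoid-responsive regulator of amino acid breakdown, rose by 0.79, and the glucocorticoid receptor Nr3c1, on the more abundant of 2 rows, fell by 0.58, both without overlap. The proximal tubule factor Hnf4a and the bile acid receptor Nr1h4 had log2 changes of -0.024 and 0.091 (limma adjusted p = 0.894 and 0.627).

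Several markers of injured tubule rose, and Havcr1, widely used for proximal injury, did not pass the test. Of that list 10 of the 19 members tested rose, 3 fell and 6 did not pass the test (5 and 2 within the 300s). Vcam1, given above with the adhesion genes, was among the members that fell, with every DK library below every NK library. Lcn2, the secreted injury marker NGAL, was at 57.2 to 286 FPKM, median 118, in DK and 14.4 to 48.5 FPKM, median 28.7, in NK. The keratin Krt8 was at 339 to 595 FPKM, median 515, in DK and 90.7 to 161 FPKM, median 123, in NK. Lcn2 and Krt8 rose by 2.2 and 1.99 in log2 units (SE 0.36 and 0.19, limma adjusted p = 1.42e-05 and 1.01e-09). Both were above NK in every DK library, and Lcn2 was highest in DK replicates 1 and 3. Havcr1, kidney injury molecule KIM-1, was at 14.9 to 118 FPKM, median 26, in DK and 14.1 to 50.8 FPKM, median 22.3, in NK (log2 change 0.53, SE 0.43, limma adjusted p = 0.343). Spp1, osteopontin, was at 1187 to 5210.0 FPKM, median 2790.3, in DK and 902 to 3116 FPKM, median 1527, in NK (log2 change 0.64, SE 0.32, limma adjusted p = 0.116). Neither passed the test: DK replicates 1 to 3 had the highest Spp1 of the 12 libraries, while replicates 4 to 6 lay within the NK range. Spp1 passed without DK replicate 4 or NK replicate 6 (limma adjusted p = 0.0328 and 0.0474). Summed FPKM of the injury list was 3903 to 9145 FPKM, median 6057, in DK and 3074 to 5478 FPKM, median 3818, in NK. Lysosomal genes leaned upwards: 14 of the 32 members tested rose, 4 fell and 14 did not pass the test (14 and 2 within the 300s). Ctsd, cathepsin D, was at 572 to 1167 FPKM, median 819, in DK and 362 to 555 FPKM, median 409, in NK. Ctsh, cathepsin H, was at 567 to 883 FPKM, median 650.3, in DK and 822 to 1739 FPKM, median 1193, in NK. Gpnmb, a lysosomal glycoprotein also used as a macrophage marker, was at 26.6 to 55.8 FPKM, median 32.9, in DK and 5.95 to 11.3 FPKM, median 9.81, in NK, so Ctsd and Gpnmb lay wholly above NK and Ctsh overlapped. Ctsd and Gpnmb rose by 0.87 and 1.97 and Ctsh fell by 0.84 in log2 units (SE 0.19, 0.23 and 0.14, limma adjusted p = 3.87e-04, 5.56e-08 and 2.07e-05).

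Markers of the cell types of cortex did not move as blocks in every case. Proximal tubule genes split: in S1 and S2, the early segments, 6 of the 12 members tested rose, 4 fell and 2 did not pass the test (4 and 2 within the 300s), and after quantile normalization 2 rose and 5 fell. Summed FPKM of these early-segment markers was 2407 to 3896 FPKM, median 3366, in DK and 3843 to 6087 FPKM, median 4389, in NK, a sum in which Gatm alone had a median of 114 FPKM in DK and 1286 FPKM in NK. In the segment S3 list 2 of the 9 members tested rose, 4 fell and 3 did not pass the test (2 and 2 within the 300s). Of the intercalated cell markers 7 of the 15 members tested rose, 0 fell and 8 did not pass the test (5 and 0 within the 300s). Their share called was 46.7%, against 39.1% over all genes. Of the thick limb markers 1 of the 11 members tested rose, 5 fell and 5 did not pass the test (0 and 3 within the 300s). The thick limb share called was 54.5%, against 39.1% over all genes. Umod, uromodulin of the thick limb, was at 724 to 1390.3 FPKM, median 940.5, in DK and 1176 to 1558 FPKM, median 1457, in NK (log2 change -0.55, SE 0.20, limma adjusted p = 0.0249), a call lost within the 300s (log2 change -0.51, limma adjusted p = 0.208) and without DK replicate 2 (log2 change -0.47, limma adjusted p = 0.0648), and the cotransporter Slc12a1 of the same cells had a log2 change of -0.017 (limma adjusted p = 0.967). Of the distal convoluted tubule markers 1 of the 8 members tested rose, 1 fell and 6 did not pass the test (1 and 0 within the 300s). This share called of 25.0% was below that over all genes. Podocyte markers were lower where they passed: 0 of the 12 members tested rose, 8 fell and 4 did not pass the test (0 and 4 within the 300s). Their summed FPKM was 143 to 207 FPKM, median 198, in DK and 208 to 255 FPKM, median 252, in NK.

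Most matrix markers and most T and natural killer cell markers fell. Of the fibroblast and matrix list 1 of the 14 members tested rose, 10 fell and 3 did not pass the test (1 and 10 within the 300s). Col1a1, a chain of type I collagen, was at 2.93 to 17 FPKM, median 3.26, in DK and 10.3 to 30.6 FPKM, median 22.3, in NK. Col6a3, a chain of type VI collagen, was at 1.13 to 3.69 FPKM, median 1.54, in DK and 4.74 to 14.2 FPKM, median 10.003, in NK. Dpt, dermatopontin of connective tissue, was at 4.88 to 12.4 FPKM, median 7.79, in DK and 29.2 to 53.1 FPKM, median 38.6, in NK. Col1a1, Col6a3 and Dpt fell by 2.1, 2.15 and 2.28 in log2 units (SE 0.30, 0.21 and 0.21, limma adjusted p = 1.41e-06, 2.15e-09 and 3.97e-10). Col6a3 and Dpt separated the diets, while DK replicate 1, at 17 FPKM, kept Col1a1 within the NK range. Dcn, decorin of the same cells, rose by 0.78, a call that ended after quantile normalization (limma adjusted p = 0.0670), and the fibroblast receptor Pdgfra had a log2 change of 0.10 (limma adjusted p = 0.637), so the list did not fall as a whole and its summed FPKM was 501 to 774 FPKM, median 533, in DK and 509.8 to 853 FPKM, median 689, in NK. Vwf, the clotting factor of endothelium, was at 2.03 to 7.98 FPKM, median 3.77, in DK and 9.97 to 15.9 FPKM, median 12.2, in NK, yet over endothelial markers 0 of the 14 members tested rose, 4 fell and 10 did not pass the test (0 and 2 within the 300s). The endothelial share called was 28.6%, against 39.1% over all genes. Vwf fell by 1.58 in log2 units (SE 0.24, limma adjusted p = 3.05e-06). Of the T and natural killer cell markers 0 of the 14 members tested rose, 12 fell and 2 did not pass the test (0 and 6 within the 300s). Of the B and plasma cell markers 0 of the 3 members tested rose, 1 fell and 2 did not pass the test (0 and 0 within the 300s). That is a share called of 33.3%, against 39.1% over all genes. Cd3e, a chain of the T cell receptor complex, was at 0.569 to 1.5 FPKM, median 1.07, in DK and 1.57 to 2.68 FPKM, median 2.06, in NK. Macrophage markers divided: Cd14, C1qb and Gpnmb rose by 1.2, 0.96 and 1.97, while Adgre1, the F4/80 antigen, was at 3.16 to 5.36 FPKM, median 3.39, in DK and 5.56 to 9.65 FPKM, median 7.36, in NK and Aif1 fell by 0.80. Cd3e and Adgre1 fell by 0.74 and 0.88 in log2 units (SE 0.20 and 0.13, limma adjusted p = 0.00370 and 3.49e-06). Of the macrophage list 6 of the 15 members tested rose, 6 fell and 3 did not pass the test (4 and 4 within the 300s), with summed FPKM of 510.2 to 854 FPKM, median 600.3, in DK and 399 to 582 FPKM, median 514, in NK.

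Clotting genes moved on both sides. F5, coagulation factor V, was at 3.43 to 6.82 FPKM, median 5.02, in DK and 0.996 to 2.43 FPKM, median 1.72, in NK. Thbd, the anticoagulant thrombomodulin of endothelium, was at 3.9 to 6.37 FPKM, median 5.06, in DK and 8.56 to 13.2 FPKM, median 11.6, in NK, both without overlap. F5 rose by 1.38 and Thbd fell by 1.09 in log2 units (SE 0.19 and 0.13, limma adjusted p = 6.00e-07 and 4.24e-08). The fibrinogen chains Fga, Fgb and Fgg rose by 1.34, 1.91 and 1.64 on the log2 scale, with DK replicate 3 the highest for Fgb at 114 FPKM, and the 3 calls ended within the 300s (log2 changes 0.77, 1.54 and 1.14, limma adjusted p = 0.208, 0.0533 and 0.153). In the complement and coagulation list 11 of the 29 members tested rose, 5 fell and 13 did not pass the test (5 and 2 within the 300s). Of the prostaglandin and other eicosanoid genes 7 of the 22 members tested rose, 2 fell and 13 did not pass the test (3 and 2 within the 300s), while under library sums 2 rose and 4 fell. Their share called was 40.9%, against 39.1% over all genes. Akr1c14, an aldo-keto reductase of steroids and prostaglandins, was at 2.75 to 4.25 FPKM, median 3.23, in DK and 6.1 to 16.2 FPKM, median 10.7, in NK, without overlap. Akr1c14 fell by 1.57 in log2 units (SE 0.32, limma adjusted p = 2.17e-04).

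Traces of other tissue were looked at too. Plin1, the lipid droplet coat of adipocytes, was at 0 to 0.0574 FPKM, median 0.025, in DK and 0.839 to 25.8 FPKM, median 1.69, in NK, with NK replicate 4 the highest (log2 change -1.98 without it), and Adipoq had a log2 change of -0.83 (limma adjusted p = 0.0662). Plin1 fell by 2.59 in log2 units (SE 0.46, limma adjusted p = 3.49e-05). Adipoq passed, also with a negative change, without DK replicate 1, NK replicate 1 or NK replicate 3 (limma adjusted p = 0.0285, 0.0480 and 0.0401). Cidec, which promotes fusion of lipid droplets, was at 14.4 to 26.8 FPKM, median 16.3, in DK and 2.64 to 26.6 FPKM, median 4.94, in NK (log2 change 1.44, SE 0.35, limma adjusted p = 0.00155), and its call was lost within the 300s (log2 change 0.20, limma adjusted p = 0.769) and once the number series was a covariate (log2 change 0.69, limma adjusted p = 0.211). Of the adipose list 1 of the 6 members tested rose, 1 fell and 4 did not pass the test (0 and 4 within the 300s). Its share called was 33.3%, against 39.1% over all genes. Cyp11a1, the side-chain cleavage enzyme of steroid synthesis and the sole adrenal marker above the expression threshold, was at 7.99 to 21.2 FPKM, median 14.9, in DK and 3.34 to 5.13 FPKM, median 4.07, in NK. Cyp11a1 rose by 1.66 in log2 units (SE 0.24, limma adjusted p = 1.61e-06). The 6 adrenal markers under that threshold were each below 1 FPKM in every library, and Cyp21a1, the adrenal 21-hydroxylase, was at 0 to 0.334 FPKM in DK and 0.298 to 0.963 FPKM in NK. Of the red blood cell list 0 of the 4 members tested rose, 0 fell and 4 did not pass the test.

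**Figure D4:**
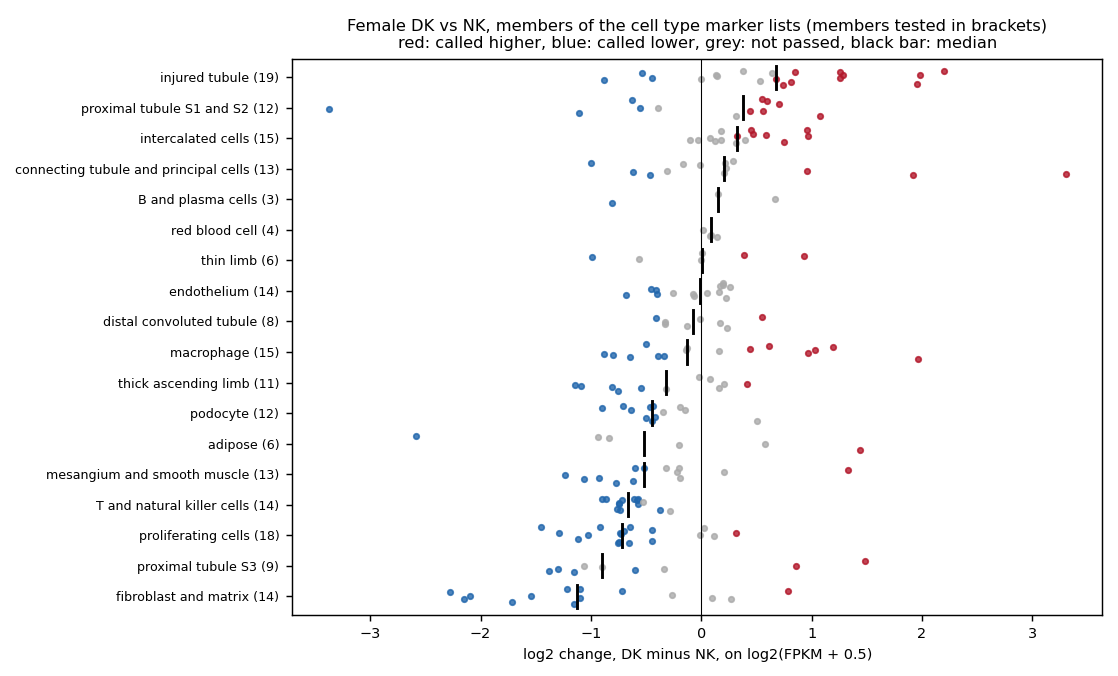
Log2 change (DK minus NK, on log2(FPKM + 0.5)) of every tested member of the cell type marker lists with at least 3 tested genes, coloured as red for risen, blue for fallen and grey for not passed, with the list median as a black bar. Injured tubule has the highest median (0.68) and fibroblast and matrix the lowest (-1.13), and most lists hold both coloured and grey points.

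Outside the lists, the named genes with the largest falls were low to moderate in level. Oacyl, an acyltransferase-like gene, was at 0.0678 to 0.187 FPKM, median 0.10, in DK and 7.74 to 20.4 FPKM, median 10.5, in NK. Akr1b7, an aldo-keto reductase, was at 0.821 to 8.08 FPKM, median 4.73, in DK and 14 to 102 FPKM, median 57.7, in NK. The homeobox gene Nkx1-2 was at 1.23 to 3.74 FPKM, median 2.56, in DK and 20.3 to 31.4 FPKM, median 26, in NK. Slc16a14, an orphan carrier of the monocarboxylate family, was at 4.82 to 18.7 FPKM, median 12.3, in DK and 60.9 to 120.3 FPKM, median 96.7, in NK. Oacyl, Akr1b7, Nkx1-2 and Slc16a14 fell by 4.24, 3.52, 3.13 and 2.86 in log2 units (SE 0.30, 0.39, 0.23 and 0.26, limma adjusted p = 1.97e-12, 2.27e-08, 4.96e-12 and 4.18e-10). In none of the 4 did a DK library reach the NK range. By level, the kidney androgen-regulated protein Kap lost most among these, at 762 to 3389 FPKM, median 1509, in DK and 3481 to 7664 FPKM, median 5786, in NK. The elongation factor Eef1a1 was higher in DK, at 4874 to 7553 FPKM, median 6402, in DK and 3166 to 3986 FPKM, median 3409.7, in NK. Among mitochondrial genes Slc25a25, an ATP-magnesium and phosphate carrier, was at 118 to 429 FPKM, median 253, in DK and 16.4 to 65.8 FPKM, median 25.8, in NK. Mfn1, which fuses mitochondria, was at 63.3 to 105 FPKM, median 93.5, in DK and 28 to 34.6 FPKM, median 30.2, in NK. Eef1a1, Slc25a25 and Mfn1 rose by 0.83, 3.02 and 1.49 and Kap fell by 1.87 in log2 units (SE 0.10, 0.32, 0.10 and 0.38, limma adjusted p = 1.58e-07, 6.05e-09, 1.45e-12 and 1.85e-04). None of these 4 overlapped between the diets, and the cytokine kinase Jak2 fell by 1.25, also without overlap.

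In males on the same diets 680 genes were called (4.77%), 416 higher (2.92%) and 264 lower (1.85%) in male DK. That count moved with single libraries: it was 294 without male DK replicate 2, 364, 424 and 400 without DK replicates 4, 5 and 6, and 398, 335 and 440 without NK replicates 1, 2 and 3. Once that series entered as a covariate 87 male genes were called. The difference of the diet response between the sexes passed for 1420 genes (9.96%). Of the male DK libraries 5 of 6 belong to the 200s and all male NK libraries to the 300s, the reverse of the females, so sex and number series are partly confounded in this difference; with the number series as a covariate it passed for 57 genes, 54 of them among the 1420. In males Tat was at 0.594 ± 0.597 FPKM in male DK and 0.00918 ± 0.0225 FPKM in male NK (mean ± SD, n = 6 each), a log2 change of 0.95 against 4.83 in females, and Gls2 was at 2.77 ± 0.495 FPKM in male DK and 1.73 ± 0.372 FPKM in male NK, 0.55 against 3.01. Male Tat lay near or below the 0.5 FPKM added before the log, so its male log2 change is understated. How far the sexes differ in Tat therefore depends on that setting. The sex difference passed for Tat (limma adjusted p = 1.33e-07, and 0.00900 with the covariate) and for Gls2 (1.33e-07 and 0.00346). Gpt2, Fmo5, Gstt3 and Hif3a likewise had smaller log2 changes in males, 0.51, 0.46, 0.27 and 0.53, and passed in both fits (limma adjusted p with the covariate 0.00203, 0.00177, 0.00646 and 4.22e-04). Oacyl, Akr1b7 and Nkx1-2, which fell in females, had male log2 changes of -0.87, 0.044 and -0.34, and the difference again passed in both (limma adjusted p with the covariate 0.0120, 0.0106 and 0.0111).

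For other genes the sex difference passed only without the covariate. Slc38a3 was at 174 ± 93.8 FPKM in male DK and 53.9 ± 29.3 FPKM in male NK, a log2 change of 1.7 (limma adjusted p of the sex difference = 0.00588, and 0.761 with the covariate). Rbp4 was at 21.1 ± 23.1 FPKM in male DK and 2.72 ± 1.25 FPKM in male NK, a log2 change of 2.1 (limma adjusted p of the difference = 5.27e-04 and 0.748). Gstm1 had a log2 change of 1.14 in males, and the difference gave a limma adjusted p of 2.51e-06 and, with the covariate, 0.0677. Arntl, which rose in females, had a log2 change of -0.88 in males (limma adjusted p of the difference = 7.01e-05 and 0.447). By contrast Cyp27b1, Pck1, Gldc and Slc13a2 had male log2 changes of 2.51, 1.53, 1.51 and 1.05, and their sex differences did not pass (limma adjusted p = 0.127, 0.103, 0.910 and 0.497), which does not show that the sexes responded alike.

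**Figure D5:**
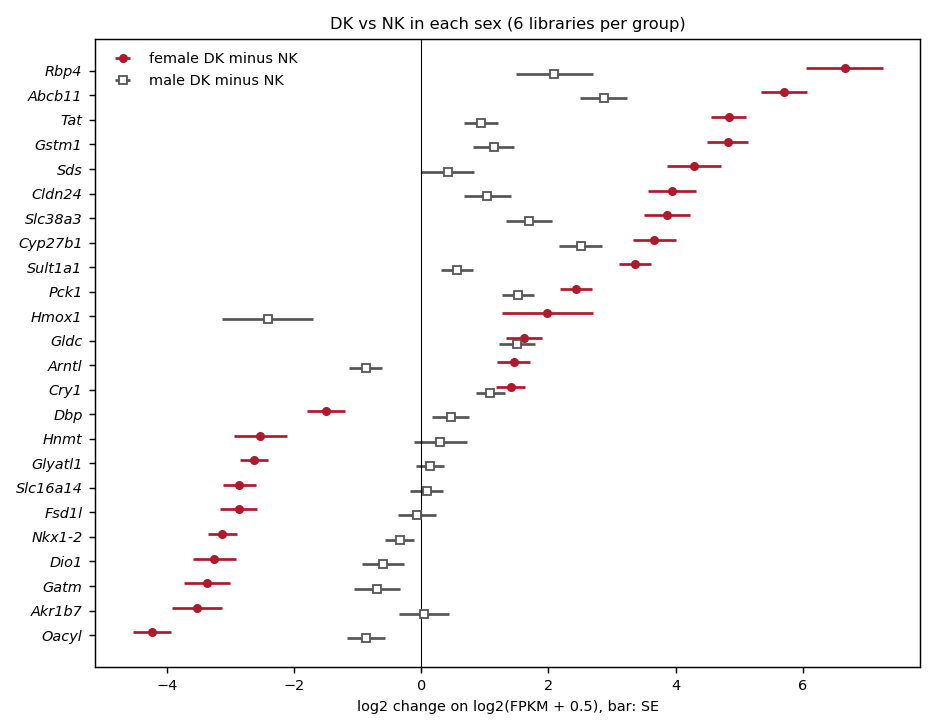
Log2 change (DK minus NK, on log2(FPKM + 0.5)) of named genes in females (red circles) and males (open squares), with the standard error as a bar and 6 libraries in each group. Most male points lie nearer 0 than the female ones, Hmox1, Arntl and Dbp are among those on opposite sides of 0, and the points of Gldc and Cry1 lie close together; the sex difference passed the test for 57 genes once the number series was a covariate.

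High potassium intake, the third diet of the series (HK, 1.41% potassium, 5 female libraries), moved no gene past the threshold against the same 6 NK libraries (0.0%; limma). All 5 HK libraries belong to the number series of the 300s, as the DK libraries do, while most NK libraries belong to the 200s. At an unadjusted p below 0.05 there were 381 genes, and limma-voom on recovered reads also called 0. Because both comparisons share the NK libraries, their values are only set side by side: Slc38a3 was at 975 ± 486 FPKM in DK, 61.5 ± 21.8 in NK and 76.1 ± 24.2 in HK (mean ± SD). Cyp27b1 was at 19.8 ± 7.53, 1.16 ± 0.759 and 0.861 ± 0.43 FPKM, Gatm at 136 ± 73, 1341 ± 407 and 928 ± 693 FPKM, and Irf7 at 4.8 ± 1.03, 15.8 ± 5.78 and 12.6 ± 1.27 FPKM, in the same order. For each of these 4 genes the HK mean lay nearer the NK mean than the DK mean did.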

How the data were processed

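Cortex RNA from 35 libraries was measured in the series, and the 12 female DK and NK libraries were compared here. The authors deposited 1 table of FPKM per gene. Per the submitters' processing notes the tools were fastp, HISAT2 2.0.5, featureCounts 1.5.0-p3 and StringTie 1.3.3b. The genome build and strandedness are not given in the sources used here. FPKM times gene length, divided by its smallest nonzero value in each library, came out whole (within 0.01) for 100% of values, zeros included. These were taken as reads, which gave the depth (14642009 to 28655976 fragments). The library size implied by the deposited FPKM was 0.813 to 1.062 of the sum of these reads in the 12 libraries. Genes with at least 1 FPKM in at least 5 libraries (14264) were tested on log2(FPKM + 0.5), so fold changes of low genes are understated. Limma 3.58.1 (R 4.3.3) fitted all 35 libraries with 6 group means and a mean-variance trend (29 residual degrees of freedom), and p-values were adjusted over all genes by Benjamini-Hochberg at 0.05. The script was tested on simulated data. Promoters came from RefSeq (GRCr8), scanned by exact letters in Python 3.11.15. Other elements were scanned too. The antioxidant element stood in 17.9% of P450 and conjugating enzyme promoters, against 14.9% of promoters of genes tested. The CRE stood in 2 of 22 promoters of the glutamine list (9.09%, against 2.98%). The matches were in Ogdh and Mdh2, and the window held none for Pck1, Glud1 or G6pc. HNF4 letters stood in 2 of 36 promoters of amino acid breakdown (5.56%, against 0.38%), and HNF1 letters in 0 of these. Alternatives covered pseudocount, filter, scaling, number series, weights, replicate block, voom on recovered reads and left-out libraries. Named genes are the largest and the most significant changes, the largest gains and losses of FPKM, list members and the largest sex differences. Members and lists were chosen with earlier results of these data known, so none is independent evidence. Placeholder symbols were not named, and some genes are not reported here.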

Additional observations from a re-analysis of the deposited data

Results flagged for a closer look

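In 32 of 382 group values looked at (each named gene in the 6 DK and in the 6 NK libraries, on log2(FPKM + 0.5)) 1 library lay so far from the other 5 that the gap to its nearest neighbour exceeded the 95% limit of Dixon's test as a share of the whole range. Chance alone gives about 1 in 20 such cases in groups of independent values, and genes of 1 library are not independent. The numbers in brackets are that share.

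DK replicate 1 stood apart for 10 genes: it was the low library for Asl, Ass1, Bnip3, Hacl1 and Rbp4 and the high one for the others, with Ace (0.648), Adgre1 (0.693), Asl (0.640), Ass1 (0.691), Bnip3 (0.874), Col1a1 (0.862), Hacl1 (0.739), Hk2 (0.862), Rbp4 (0.663) and Slc12a1 (0.669). DK replicate 3 stood apart for C1qb (0.681), Ctsh (0.659), Dab2 (0.688) and Kl (0.735), high for the first 2 and low for the last 2. NK replicate 4 was the high library for Adipoq (0.913) and Rbp4 (0.783). NK replicate 6 was high for Atp12a and Slc38a3 and low for Ciart, Dbp and Nr3c1, with Atp12a (0.688), Ciart (0.649), Dbp (0.718), Nr3c1 (0.861) and Slc38a3 (0.721). NK replicate 2 stood apart for Clock (0.696), Mx1 (0.701), Mx2 (0.719) and Oasl2 (0.722), low each time. NK replicate 5 stood apart for Aco1 (0.709), Dio1 (0.774), Glul (0.651), Kcnj1 (0.663), Slc5a10 (0.684) and Thra (0.633), of which Kcnj1 and Thra were high and the others low. NK replicate 1 was the high library for Ccnd1 (0.629).

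The diet response differed between the sexes, by limma's test of the difference at an adjusted p below 0.05, for 13 of the genes whose male values are given above. Male minus female log2 change was -2.33 for Arntl, -1.31 for Fmo5, -2.46 for Gls2, -2.26 for Gpt2, -3.68 for Gstm1, -1.83 for Gstt3, -2.35 for Hif3a, -4.57 for Rbp4, -2.17 for Slc38a3 and -3.89 for Tat, where the female response was the more positive. It was 3.57 for Akr1b7, 2.79 for Nkx1-2 and 3.37 for Oacyl, where the female response was the more negative. For Tat the male change is understated, because male Tat lay near or below the FPKM added before the log. With the number series as a covariate Arntl, Gstm1, Rbp4 and Slc38a3 no longer passed, and because male and female diets sit in opposite number series the 2 cannot be fully told apart.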

How the results depend on the processing

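Of the 164 named genes that passed in females, 149 kept their direction and their side of the threshold under all 28 alternatives in which they could be fitted, and none turned direction. The others are marked in the text. Most of their losses came within the libraries of the 300s (12 genes) or once the number series entered as a covariate (11 genes), and 4 came without DK replicates 1 and 3 and NK replicate 2 together, an alternative chosen after seeing the data. Of the named genes that did not pass, Hnf4a and Slc5a2 passed after quantile normalization, and Adipoq, Hk2, Nphs1, Rxra, Slc5a2 and Thra under library sums. The female count of 5584 fell to 3701 with the number series as a covariate and to 3471 within the 300s, where only 2 NK libraries remained. It lay between 4950 and 6113 when 1 library was left out, and at 5251 to 5607 with other pseudocounts, the filter on the 12 libraries, median-ratio scaling, quantile normalization or voom on recovered reads. Without a filter 5640 genes were called, with a mean of at least 5 FPKM 4051, in the 12 libraries alone 3816, in the females alone 4537 and with array weights 6272. Library sums gave 6337, of which 22.8% were higher in DK, against 50.2% with the deposited scaling. The replicate number of the labels was not taken to pair the libraries: same-numbered libraries of the 2 diets deviated together (correlation over 0.1) in 1 of 6 pairs. With the replicate block 5381 female genes were called, and no named call was lost. The male count of 680 was 1283 under library sums (245 higher and 1038 lower), 1673 with array weights, 87 with the number series as a covariate and 294 to 914 with 1 library left out, and with the replicate block 576. The sex difference of 1420 genes was 2218 with array weights, 57 with the number series as a covariate and 1083 to 1800 with libraries left out. Female HK against NK gave 1 gene within the 300s and 0 in each fit with 1 library left out. The causes of these shifts were not tested. On simulated counts with 14264 genes, 100 were changed 1.5-fold and 100 were changed 2-fold, with the same relative spread for every gene. Of these, 20% of the 1.5-fold and 80% of the 2-fold changes were recovered. The real comparison called 5584 genes and its spread was uneven, so these shares do not measure its power. Small changes can still be missed.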
